A study of Mus musculus with 3 samples.

Results

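The 10 genes described here encode transcription factors other than AP-1 that signals from the T cell receptor (TCR) are known to induce. They were taken by symbol from the deposited gene table as Nr4a1, Nr4a2, Nr4a3, Egr1, Egr2, Egr3, Nfatc1, Myc, Irf4 and Irf8, and all 10 were found among its 17121 genes. RNA was sequenced from wild-type mouse CD8+ T cells of spleen and lymph node after 3 days in culture, with 1 sample in each of 3 groups. The young TCR sample (mice aged 6 weeks) was stimulated only through the receptor and the co-stimulatory protein CD28, with anti-CD3 and anti-CD28 at 1 µg/ml. For the young TRM sample, also 6 weeks, IL-15 (20 ng/ml) and TGF-beta (5 ng/ml) were added, which are used to favour a tissue-resident memory (TRM) state. The aged TRM sample received the same antibodies and cytokines and came from mice aged 18 months. All 3 samples thus carried receptor stimulation, and no unstimulated sample was analysed here. The labels give neither the strain nor the number of mice behind a sample.

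When the receptor is engaged, calcium activates calcineurin, which lets NFAT proteins such as NFATc1 enter the nucleus, while the ERK pathway switches on the zinc finger factors EGR1, EGR2 and EGR3. The orphan nuclear receptors NR4A1 (Nur77), NR4A2 (Nurr1) and NR4A3 (Nor1) follow within hours and restrain T cells that are stimulated for long. MYC drives growth and metabolism of dividing T cells, IRF4 is induced in step with receptor signal strength and binds DNA together with BATF and JUN proteins, and IRF8 answers to interferon gamma as well as to the receptor.

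Levels are given in CPM, read counts brought to equal depth with trimmed-mean (TMM) factors, and, where genes are compared with each other, in the authors' TPM, which corrects for transcript length. Each sample had 2 numbered columns in the table, taken as repeat measurements of that sample. For the 10 genes the columns of a sample differed by 1.04-fold in the median and by at most 1.10-fold. The words rose and fell are kept for genes called: those with a ratio of CPM + 1 of 2-fold or more and a 95% counting interval of the ratio that excluded 1. Printed folds hold no added value, and their intervals cover counting error only. With 1 sample per group no difference could be tested against variation between mice or cultures. The samples held between 36021887 and 40385477 reads. All 10 CD8 T cell markers were present. They summed to 3353 CPM in young TCR, 4743 CPM in young TRM and 4376 CPM in aged TRM. Cd8a had the largest level of the 10 in every sample, at 747, 1822 and 1632 CPM. It was the only marker of this list called, rising with the added cytokines. Of the 10, 7 had a log2 ratio above 0 with the cytokines and 3 (Cd2, Cd5 and Zap70) below 0. Cd4 had between 10.5 and 12.4 CPM. The other cell types are taken up with IRF4 and IRF8 below.

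In the comparison of cytokines, 4 of the 10 genes rose in young TRM (Nr4a1, Nr4a3, Egr3 and Irf8) and 0 fell. Among all 11588 genes tested, 4.18% rose and 3.6% fell, 7.78% in all. The same 4 members were past 2-fold in all 4 pairings of columns, as were 3.35% of genes upward and 2.89% downward. At a fold of 1.5 there were 5 members, all higher and with Egr1 added, against 9.41% of genes higher and 9.1% lower. The median log2 ratio of the 10 was 0.75, against 0.02 over all tested genes. In the comparison of ages, 0 of the 10 rose and 0 fell in aged TRM, where 2.25% of 11575 tested genes rose and 1.15% fell, 3.4% in all, and the median log2 ratio was -0.02. None was past 2-fold in all pairings (1.59% of genes upward and 0.812% downward) or past a fold of 1.5 (6.32% and 3.84%). Each of the NR4A, EGR and IRF groups held a gene that passed the threshold in the comparison of cytokines and another that did not.

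**Figure D1:**
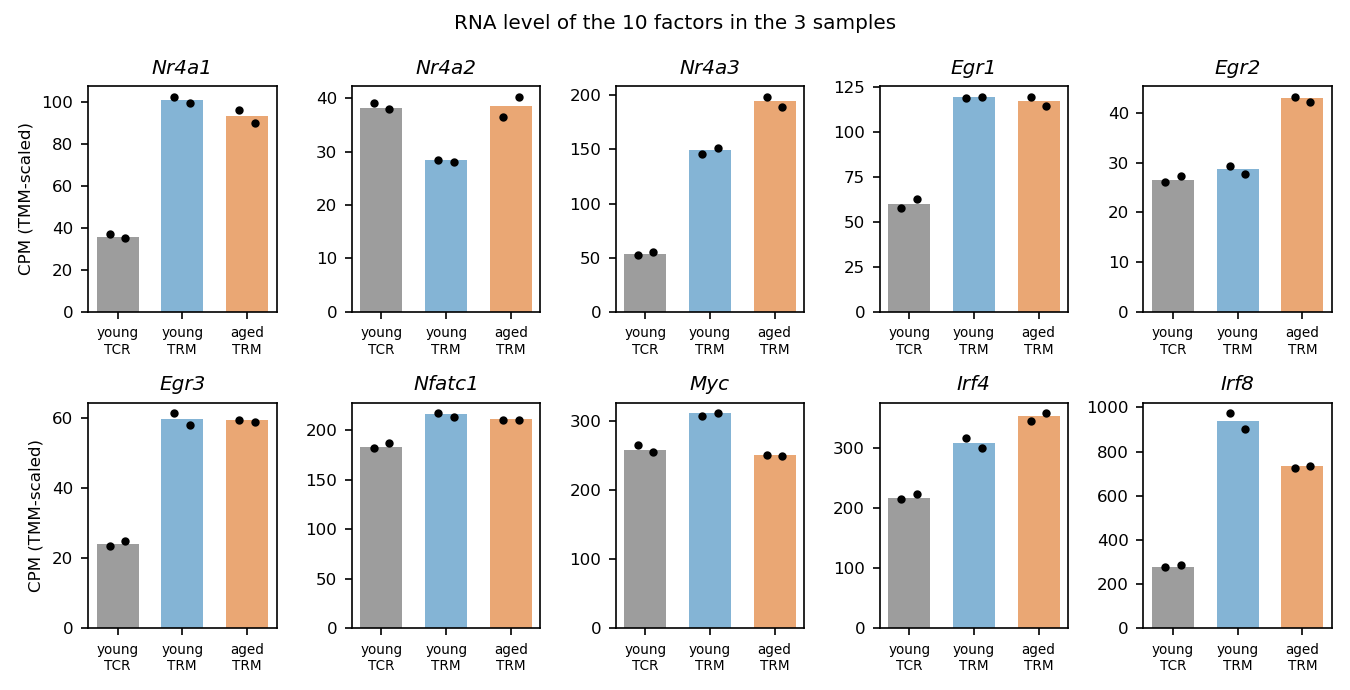
CPM (vertical axes, each from 0) of the 10 genes in young TCR, young TRM and aged TRM. Bars are the value from the summed columns and points are the 2 columns of each sample, scaled separately, so that a bar need not lie midway between its points. Irf8 reaches 939 CPM in young TRM, whereas Nr4a2 is lowest there at 28.4 CPM.

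Nr4a1 (gene 15370, chr15:101253902-101274795 of GRCm38.p6) had 35.9 CPM in young TCR, 101 CPM in young TRM and 93.6 CPM in aged TRM. It rose 2.82-fold with the added cytokines (interval 2.65 to 3.00), and both TRM samples lay well above young TCR. Between the ages it differed by a log2 ratio of -0.11. Nr4a3 (gene 18124, chr4:48045078-48086447) had 53.3, 149 and 195 CPM in young TCR, young TRM and aged TRM. It rose 2.80-fold with the cytokines (2.66 to 2.94), nearly the same fold as Nr4a1, and was highest in the aged sample. The aged level was 1.31-fold that of young TRM (1.26 to 1.35), under the threshold. The columns of these samples did not overlap, as for 73.8% of all tested genes. Nr4a2 (gene 18227, chr2:57106830-57124003) differed in the other direction, at 38.3 CPM in young TCR, 28.4 CPM in young TRM and 38.6 CPM in aged TRM. Its young TRM level was 1.35-fold lower than in young TCR (1.25 to 1.46), which is under the threshold, and the columns of young TCR and aged TRM overlapped. Nr4a2 overlaps an annotated gene, LOC105244150, which had under 1 CPM in each sample.

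Per transcript length, the NR4A genes together had 70.5 TPM in young TCR, 149 TPM in young TRM and 172 TPM in aged TRM. Their proportions changed along with the sum. Nr4a2 made up 32.5% of the family's TPM in young TCR, 11.3% in young TRM and 13.9% in aged TRM. In both columns of young TCR its share exceeded 32%, and no column of the other samples reached 15%. Nr4a1 had the largest share in every column of the 3 samples, with 40.3%, 53.3% and 44.3%. The TPM of Nr4a3 was 0.67 times that of Nr4a1 in young TCR, 0.66 times in young TRM and 0.94 times in aged TRM, so in the aged sample these genes stood nearly level.

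Sequences before the transcript starts are shown for Nr4a1, Nr4a2 and Nr4a3 because they share a motif there although Nr4a2 did not rise with the other two. They come from the RefSeq promoter table of build GRCm38.p6, which held 6 of the 10 genes (Nr4a1, Nr4a2, Nr4a3, Egr2, Irf4 and Irf8) in 11 windows, each read over the 250 bases before a start. The motif is TGACG, the core of the cyclic AMP response element (CRE) bound by CREB and ATF factors, sought on both strands, and it was chosen after the sequences had been seen. Each NR4A window held 4 matches. Of 32851 windows of the same length, 0.137% held at least 4 and 17.8% at least 1. The sequences are printed 5′ to 3′ on the gene's strand, with matches on either strand in capitals. The Nr4a1 window, chr15:101266596-101266845 on the plus strand, lies inside an intron of a longer Nr4a1 transcript in GENCODE M21. The Nr4a3 window overlaps an exon of another Nr4a3 transcript. In RefSeq the Nr4a2 window lies within LOC105244150, the annotated gene that overlaps Nr4a2. Stretches of 30 bases with 2 matches each are shown for Nr4a2 (chr2:57124110-57124139, minus strand) and Nr4a3 (chr4:48045085-48045114, plus strand).
Nr4a1: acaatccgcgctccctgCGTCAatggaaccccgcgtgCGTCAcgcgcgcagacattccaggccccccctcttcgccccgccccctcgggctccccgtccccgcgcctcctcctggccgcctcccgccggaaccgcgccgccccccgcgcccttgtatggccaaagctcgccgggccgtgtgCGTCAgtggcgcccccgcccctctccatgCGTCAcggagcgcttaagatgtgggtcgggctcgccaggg
Nr4a2: agcccggccgggcTGACGgggccgcTGACG
Nr4a3: cccatgtCGTCAcatTGACGtctcgcattc
Nr4a2, which did not rise, held as many matches as Nr4a1 and Nr4a3. The motif was chosen as one that these windows share, so the equal counts are no result about the levels. Matching letters describe the window and do not show that a factor binds there.

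Among the EGR genes, whose zinc fingers recognise GC-rich sites, 1 of 3 rose with the cytokines. Egr3 (gene 13655, chr14:70077317-70082613) had 24.1 CPM in young TCR, 59.9 CPM in young TRM and 59.5 CPM in aged TRM. It rose 2.48-fold with the cytokines (2.30 to 2.68), and the columns of both TRM samples overlapped. Egr1 followed the same course at 59.6, 119 and 117 CPM. Its fold of 2.0 (1.90 to 2.10) gave a log2 ratio of 0.99 once 1 CPM was added, just short of the threshold, which it passed at 1.03 when column 1 was taken alone. Egr2, which with EGR3 is known to restrain T cell activation, had 26.5, 28.7 and 43.0 CPM in young TCR, young TRM and aged TRM. It differed by 1.08-fold between the young samples, with an interval of 0.99 to 1.18 that includes 1. Its aged level was 1.499-fold that of young TRM (1.39 to 1.62), which was the widest gap between the ages among the 10 genes but still under the threshold.

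In TPM the EGR genes summed to 68.0 in young TCR, 125 in young TRM and 137 in aged TRM. Egr1 held between 56.3% and 60.9% of these sums. The order of the other members turned: the TPM of Egr3 was 0.68 times that of Egr2 in young TCR, 1.57 times in young TRM and 1.04 times in aged TRM, with the columns of each sample close to these values. In young TCR the columns gave 0.67 and 0.69, and in young TRM 1.57 and 1.58. Among the EGR relatives, the corepressor genes Nab1 and Nab2 stayed under the threshold in both comparisons, with Nab1 at 90.9, 106 and 115 CPM and Nab2 at 74.9, 76.6 and 82.5 CPM. Egr4 had 0.37, 0.62 and 1.26 CPM.

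**Figure D2:**
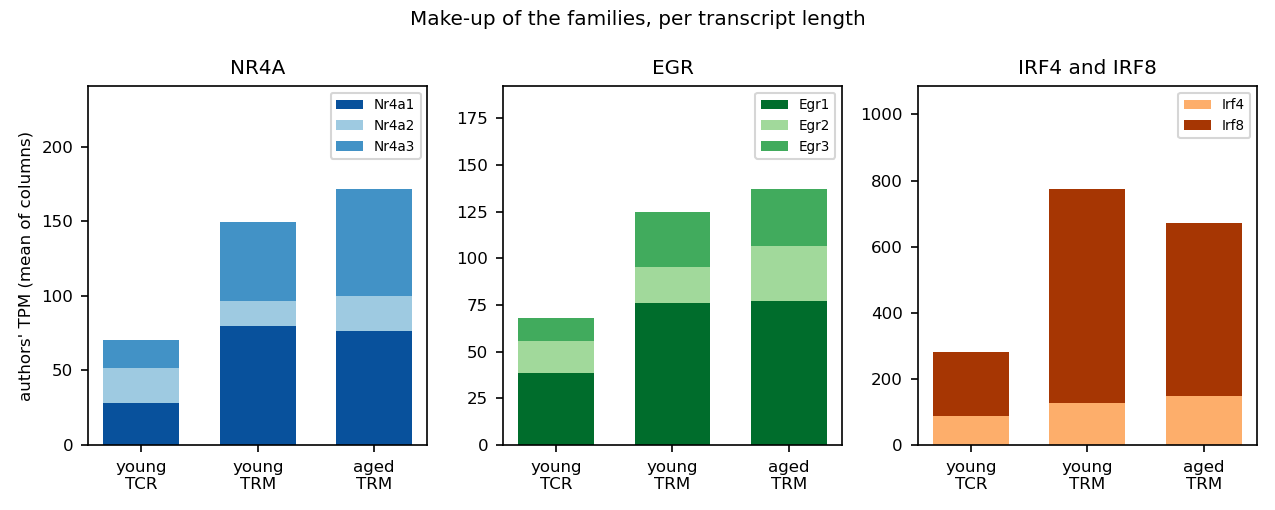
The authors' TPM, mean of the columns, stacked by gene for the NR4A, EGR and IRF4 with IRF8 groups in young TCR, young TRM and aged TRM. All 3 sums are higher in both TRM samples than in young TCR, and the Nr4a2 segment is smaller in young TRM (16.95 TPM) than in young TCR (22.9 TPM) although the NR4A sum is larger.

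Nfatc1, which encodes the NFAT protein that is itself induced by NFAT, had 183, 216 and 211 CPM. It differed by 1.18-fold between the young samples (1.14 to 1.22) and by a log2 ratio of -0.03 between the ages. Its relatives had 71.7, 118 and 90.2 CPM (Nfatc2), 207, 224 and 206 CPM (Nfatc3) and 115, 181 and 181 CPM (Nfat5), and Nfatc4 had at most 0.098 CPM. Of 21 tested genes of the calcium, calcineurin and NFAT pathway, 0 rose and 0 fell in either comparison, with median log2 ratios of 0.09 for the cytokines and -0.09 for age. The closest to a call was Ppp3cc, a catalytic subunit of calcineurin, at 199 CPM in young TCR and 99.1 and 99.3 CPM in the TRM samples. Its log2 ratio of -1.0 for the cytokines fell just short of the threshold before rounding and passed it under 5 alternatives, such as scaling by totals (-1.05). Itpr1, a calcium channel of the endoplasmic reticulum, had 116, 65.9 and 106 CPM, and Rcan3, of the calcineurin regulator family, had 38.9, 67.7 and 68.1 CPM.

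Myc had 257 CPM in young TCR, 311 CPM in young TRM and 251 CPM in aged TRM. It differed by 1.21-fold between the young samples (1.17 to 1.24), and its aged level was 1.24-fold lower than in young TRM (1.21 to 1.27). Both differences were under the threshold, and young TRM was the highest sample in every column. The genes that MYC is known to drive mostly had their lower level in young TRM. Of 27 such genes, for ribosome assembly, nucleotide and polyamine synthesis and nutrient uptake, 23 had a log2 ratio below 0 with the cytokines and 26 had one above 0 with age. The medians were -0.44 and 0.21, against 0.02 and -0.01 over all tested genes, but only Srm, which encodes spermidine synthase, passed the threshold, falling from 112 to 51.9 CPM in young TRM, with 80.0 CPM in aged TRM. Both comparisons share the young TRM sample, so a low value there lowers the first and raises the second. Odc1, the rate-limiting enzyme of polyamine synthesis, had 482, 283 and 474 CPM, and Polr1b, a subunit of RNA polymerase I, had 68.3, 44.1 and 56.7 CPM. The 4 genes above 0 with the cytokines, named after their values were seen, were the cyclin gene Ccnd2 and the amino acid transporter genes Slc7a5, Slc3a2 and Slc1a5. Slc7a5 had 286, 432 and 443 CPM.

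Among 11 genes of the MYC network, Max and Mxd1 rose with the cytokines and 0 fell, with a median of 0.19. Max, the obligate partner of MYC, had 102, 231 and 189 CPM in young TCR, young TRM and aged TRM. Mxd1, whose product competes with MYC for MAX and represses its targets, had 51.2, 170 and 91.5 CPM. Usp28, which encodes an enzyme that removes ubiquitin from MYC, had 23.2, 46.2 and 32.5 CPM, with a log2 ratio of 0.96. With age 0 genes of the network passed the threshold, and 10 of 11 had a log2 ratio below 0 (median -0.29), Mxd1 at -0.89 and Usp28 at -0.49 among them. Here too both comparisons share the young TRM sample.

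Irf8 (gene 15900, chr8:120736358-120756694) had 278 CPM in young TCR, 939 CPM in young TRM and 734 CPM in aged TRM. It rose 3.37-fold with the cytokines (3.30 to 3.45), a log2 ratio of 1.75 that only 1.28% of tested genes exceeded. The aged level was 1.28-fold lower than in young TRM (1.26 to 1.30), under the threshold. The columns of these samples did not overlap, as for 73.8% of all tested genes. Counted from the highest TPM, Irf8 stood 822nd in young TCR, 196th in young TRM and 253rd in aged TRM. Irf4 had 216, 308 and 352 CPM and was thus highest in the aged sample. It differed by 1.42-fold between the young samples (1.38 to 1.46) and by 1.14-fold between the ages (1.12 to 1.17), both under the threshold. The TPM of Irf8 was 2.17 times that of Irf4 in young TCR, 5.14 times in young TRM and 3.51 times in aged TRM.

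The 250 bases before the first annotated start of Irf8 are shown, chr8:120736108-120736357 of GRCm38.p6 on the plus strand. They were chosen because IRF8 is a known interferon-gamma target. The window lies within a transcript of Gm20388 in GENCODE M21. Capitals mark matches to TTCNNNGAA, the pattern of the gamma-activated sequence (GAS) of interferon-gamma target genes, which reads alike on both strands. The window held 2 matches. Of all windows, 0.317% held at least 2 and 7.02% at least 1. Matching letters do not show that a factor binds there, and a part of interferon gamma in the Irf8 level was not tested.
Irf8: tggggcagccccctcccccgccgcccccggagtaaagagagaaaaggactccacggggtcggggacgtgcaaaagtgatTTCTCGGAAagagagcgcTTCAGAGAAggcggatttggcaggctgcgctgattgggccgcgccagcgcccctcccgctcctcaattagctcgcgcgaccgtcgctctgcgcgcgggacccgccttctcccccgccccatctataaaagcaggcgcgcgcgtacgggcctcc
No match to this pattern was found before the other annotated start of Irf8 (chr8:120738389-120738638), in the Irf4 window or in any other window of the members. In all, 13 motifs were sought, on both strands and in all windows. The AP-1 site TGANTCA, the full CRE TGACGTCA, the composite site of NFAT and AP-1, the EGR site GCGTGGGCG, the NR4A site AAAGGTCA, the core of the interferon-stimulated response element and the SMAD palindrome GTCTAGAC had no match. The NFAT core GGAAA, held by 55.6% of all windows, was found before Egr2, Irf8 and Nr4a2, and at Irf8 it overlaps a GAS match. The EGR variant GCGGGGGCG (2.57% of all windows) was found before Nr4a1. The E box CACGTG (6.02%) was found in 1 window of Egr2. The CArG box of serum response factor (1.47%) was found in 4 other windows of Egr2. Of these, 3 overlapping windows also held the same 2 matches to TGACG. The full CRE and the composite contain shorter motifs of this list.

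**Figure D3:**
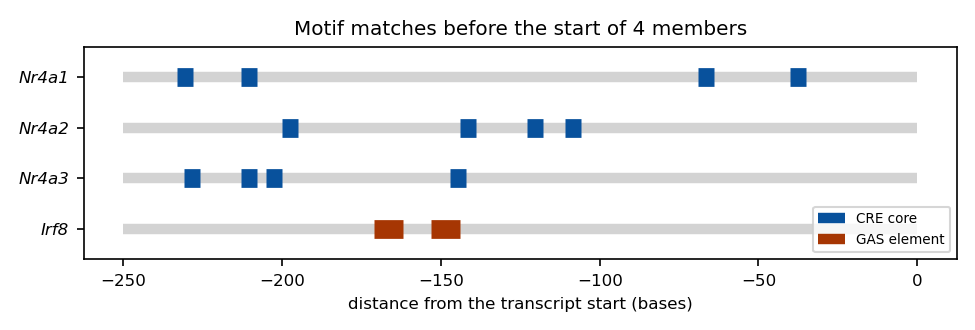
Position of motif matches in the 250 bases before the transcript start (horizontal axis, in bases, start at 0) of Nr4a1, Nr4a2, Nr4a3 and Irf8. Blue blocks are matches to TGACG, 4 per NR4A gene, and brown blocks are the 2 matches to TTCNNNGAA before the first annotated start of Irf8.

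Of 13 tested interferon-gamma target genes, 7 rose and 0 fell with the cytokines, with a median log2 ratio of 1.02. Gbp2, a guanylate-binding protein gene, had 365, 1031 and 491 CPM in young TCR, young TRM and aged TRM. Icam1 was called at 1.02 but not when libraries were scaled by totals (0.96), with column 2 alone (0.99) or with a pseudocount of 5 (0.97). With age 1 gene, Gbp2, fell, and 12 of 13 had a log2 ratio below 0 (median -0.61). Both comparisons share the young TRM sample, so a high value there raises the first and lowers the second. Among the IRF relatives, Irf1 rose from 313 to 772 CPM and had 427 CPM in aged TRM. Irf7 rose from 14.0 to 31.2 CPM and fell to 10.4 CPM in aged TRM, and its rise was under the threshold with a pseudocount of 5 (0.93). Irf9 had 56.3, 91.6 and 55.7 CPM. Over all 14 tested relatives of the members, 2 rose (Irf1 and Irf7) and 0 fell with the cytokines, and of 15 tested with age 0 rose and 1 fell (Irf7).

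Genes for proteins that bind DNA together with IRF4 or IRF8, or regulate with them, mostly had lower levels in young TRM, where Irf8 was highest. Of 10 tested, 5 fell (Batf, Batf3, Spib, Bcl6 and Prdm1) and 1 rose (Ikzf3), with a median of -0.88. Batf, the partner of IRF4 at composite sites, had 62.7, 11.2 and 24.7 CPM, and Bcl6, a repressor gene, had 23.9, 3.01 and 4.11 CPM. Ikzf3, which encodes Aiolos, had 197, 453 and 354 CPM. With age 3 rose (Batf, Batf3 and Prdm1) and 0 fell, in a comparison that shares the young TRM sample with the first. Batf3 went from 20.5 to 8.32 to 21 CPM in young TCR, young TRM and aged TRM, and both its calls were lost with column 1 alone (-0.92 and 0.83) and with a pseudocount of 5. The rise of Batf with age was lost with a pseudocount of 5 (0.88), that of Prdm1 with that setting (0.62), the authors' TPM (0.86), column 2 alone (0.88) or genes of at least 10 CPM, and the fall of Spib with column 1 alone (-0.92), a pseudocount of 5 or genes of at least 10 CPM.

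B cells and dendritic cells also express Irf4 or Irf8 strongly. The 10 B and plasma cell markers summed to 89.8 CPM in young TCR, 20.1 CPM in young TRM and 29.6 CPM in aged TRM. With the cytokines 6 of 8 tested fell, and with age 3 of 7 rose, which became 2 and 0 with a pseudocount of 5. Much of these sums came from Pou2af1, at 40.7, 2.58 and 4.53 CPM, and Cd79b, at 15.5, 12.9 and 11.7 CPM. The 13 myeloid and dendritic cell markers summed to 25.9, 42.5 and 29.1 CPM, of which Mpeg1 alone gave 4.22, 28.7 and 15.4 CPM. Itgax had 8.63, 3.55 and 4.21 CPM and Cd68 had 9.23, 5.25 and 4.45 CPM, both highest in young TCR. Flt3, Clec9a, Siglech and Xcr1 had at most 1.97 CPM in any sample. Fcgr1 was at 0 in young TCR and aged TRM, Adgre1 at 0 in young TRM and Clec9a at 0 in aged TRM. With the cytokines 1 of 5 tested rose (Mpeg1) and 1 fell (Itgax), the latter not with the authors' TPM (-0.93), a pseudocount of 5 (-0.67) or genes of at least 10 CPM. The 5 NK cell markers summed to 2.66, 13.8 and 11.0 CPM, with 4 of 5 risen with the cytokines (0 with a pseudocount of 5) and 0 called with age. The 5 CD4 T cell markers summed to 297, 289 and 285 CPM, of which Ctla4 alone gave 266, 234 and 255 CPM. Of 4 tested CD4 T cell markers Foxp3 rose and Zbtb7b fell with the cytokines, and Foxp3 fell with age. The call of Zbtb7b was lost with the authors' TPM (-0.997) and with a pseudocount of 5 (-0.83). Foxp3 had 1.95, 33.6 and 3.71 CPM. The part of these cells in the levels of the 10 genes was not tested. Bulk RNA does not show which cells the reads of a marker came from. Fewer cells of a type and less RNA per cell cannot be told apart in it either.

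Genes known to depend on EGR or NFAT factors, many of them linked to T cell anergy, went both ways. Of 16 tested, 2 rose (Ccl1 and Sema7a) and 4 fell (Cdkn1a, Nfil3, Crtam and Nrgn) with the cytokines, with a median of -0.52. Ccl1, a chemokine gene, had 6.31, 55.9 and 84.7 CPM. Sema7a, a membrane-bound semaphorin gene, had 40.1, 112 and 121 CPM. Nfil3, a transcription factor gene, had 127, 45.1 and 64.2 CPM. Cdkn1a, which encodes the cell cycle inhibitor p21, had 157, 47.2 and 192 CPM, and its rise with age was the only call of the list there. Nrgn, at 19.8, 9.11 and 9.72 CPM, was not called with a pseudocount of 5 (-0.81). Among 9 tested exhaustion genes linked to NR4A factors, Entpd1 rose and Havcr2 fell with the cytokines (median 0.02), and of 10 tested with age Havcr2 rose and 0 fell (median 0.29). Lag3, on both lists, had 161, 118 and 233 CPM, with a log2 ratio of 0.98 for age that passed the threshold with 3 alternatives, such as the authors' TPM (1.03). Pdcd1, which encodes PD-1, had 42.4, 42.9 and 74.9 CPM.

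Of 27 tested genes among other immediate early genes, 7 rose (Jun, Maff, Fosb, Dusp2, Nfkbiz, Fos and Ier2) and 1 fell (Ier3) with the cytokines, with a median of 0.22. Jun had 61.4, 335 and 177 CPM, and Maff, a small MAF factor gene, had 3.95, 14.0 and 13.3 CPM. With age 1 of 28 rose (Atf3) and 1 fell (Fosb), with a median of -0.11. Atf3, a stress-induced factor gene, had 15.2, 12.5 and 31.9 CPM, and Fosb had 2.0, 7.38 and 2.41 CPM. Calls of Fos and Fosb were lost with a pseudocount of 5 and with genes of at least 10 CPM.

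**Figure D4:**
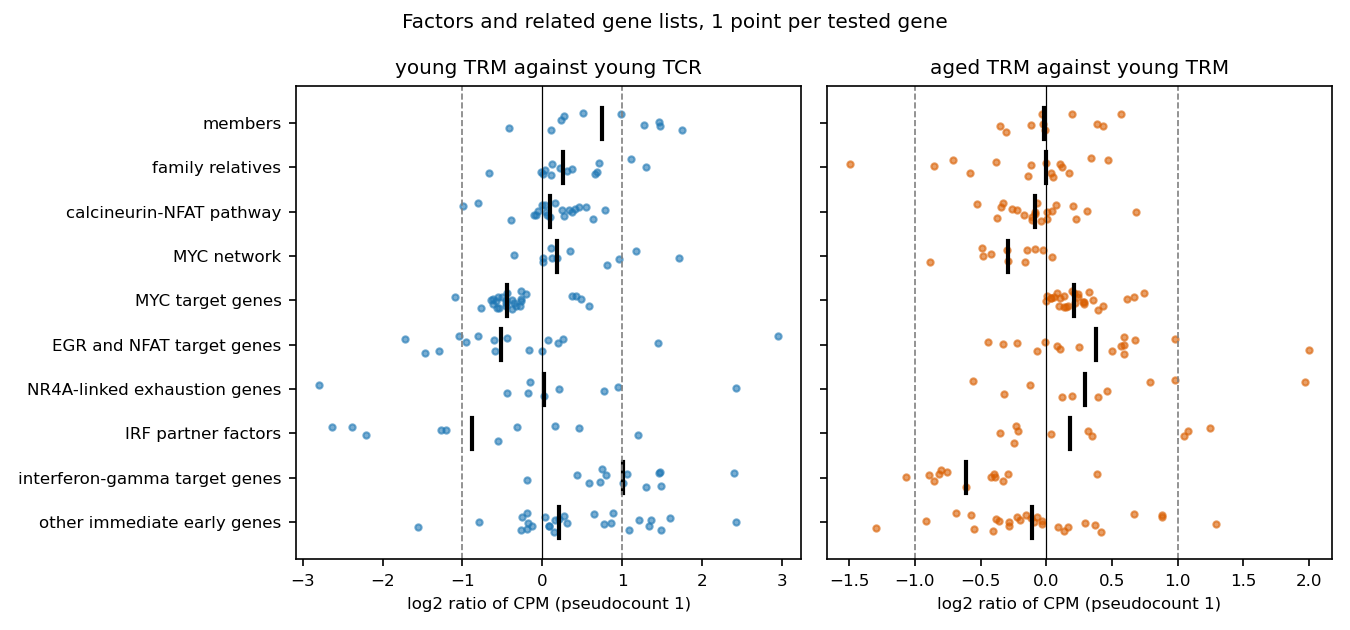
Log2 ratio of CPM, pseudocount 1 (horizontal axes), of each tested gene of the members and 9 related lists for young TRM against young TCR (left) and aged TRM against young TRM (right). Black bars are medians and dashed lines mark 2-fold. MYC target genes lie mostly left of 0 on the left (median -0.44) and right of 0 on the right (median 0.21), and interferon-gamma target genes the reverse (1.02 and -0.61). Both panels share the young TRM sample.

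With the cytokines the columns did not overlap for any of the 10, 9 being higher and 1 (Nr4a2) lower in young TRM, where 78.9% of all tested genes had columns that did not overlap (39.2% higher and 39.7% lower). With age 4 were higher without overlap (Nr4a2, Nr4a3, Egr2 and Irf4), 4 were lower (Nr4a1, Nfatc1, Myc and Irf8) and 2 overlapped (Egr1 and Egr3), against 73.8% of all genes without overlap (35.9% higher and 38% lower). The 8 of 10 members without overlap with age are near the share of all genes, and no member was called there.

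**Figure D5:**
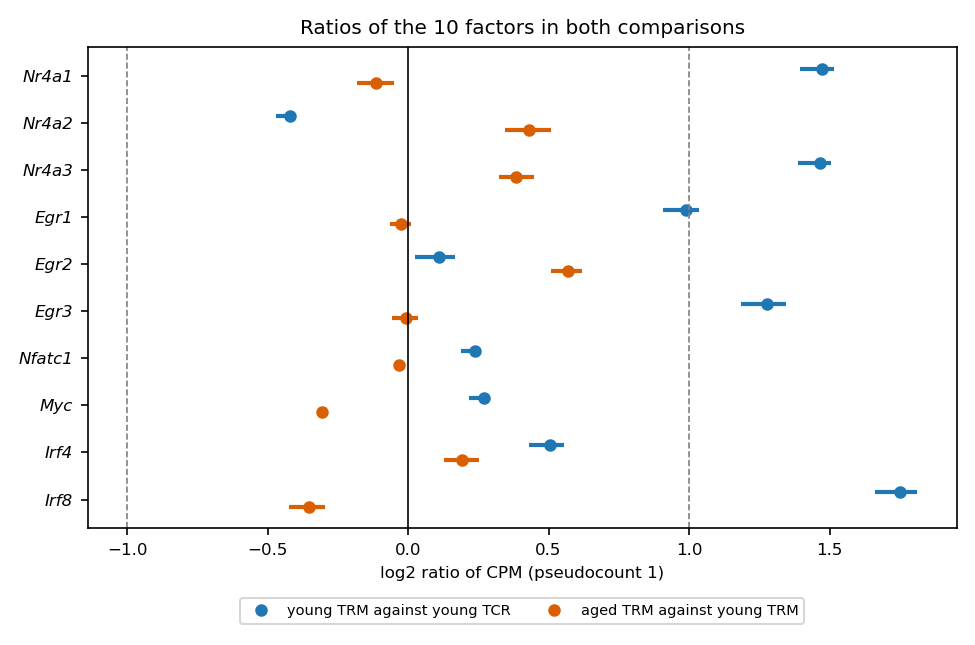
Log2 ratio of CPM, pseudocount 1 (horizontal axis), of each of the 10 genes for young TRM against young TCR (blue) and aged TRM against young TRM (orange). Lines span the 4 pairings of columns and dashed lines mark 2-fold. Nr4a1, Nr4a3, Egr3 and Irf8 lie wholly above 2-fold in blue, Egr1 straddles the line and every orange line lies inside it.

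In the order of TPM, Myc led in young TCR with 213 TPM and Irf8 was next with 193 TPM, whereas Irf8 led in both TRM samples with 649 and 523 TPM and Myc was next with 255 and 213 TPM. Irf4 and Nfatc1 followed in all 3 samples, at 89.2, 126 and 149 TPM and at 79.3, 93.1 and 93.6 TPM. Egr3 was last in young TCR at 12 TPM, and Nr4a2 was last in both TRM samples at 16.95 and 23.8 TPM. Neighbours in these orders had separate columns except in aged TRM, where Egr1 (77.3 TPM), Nr4a1 (76.1 TPM) and Nr4a3 (71.9 TPM) overlapped in turn. All 10 genes together had 713 TPM in young TCR, 1398 TPM in young TRM and 1287 TPM in aged TRM, with Irf8 making up 27.1%, 46.4% and 40.6%.

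For each of the 4 genes that rose, the 3 genes with the nearest pair of log2 ratios were sought among 9207 genes of at least 10 CPM, by Euclidean distance over both comparisons and hence over only 3 samples. Nearest to Nr4a1 were Ttc39b, Noct and Slc6a9 (distances 0.034 to 0.071), with Noct at 37.3, 103 and 91.0 CPM. Nearest to Nr4a3 were Adssl1, Myadm and Zfp318 (0.042 to 0.113). Nearest to Egr3 were Gne, Golm1 and Trio (0.023 to 0.059). Nearest to Irf8 were Acsbg1, Treml2 and Zbtb18 (0.066 to 0.087), with Treml2 at 70.0, 253 and 198 CPM. None of the 10 factors was among the nearest genes of another.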

How the data were processed

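RNA of 3 samples, 1 per group, was analysed. Per the file headers, the deposited table holds estimated counts per gene (not all whole) and TPM, which the authors made from their reads. Per the submitters' processing notes, Bowtie and GRCm38 (mm10) were used; no source used here names the counting program or its handling of reads shared between genes. A further 24 value columns were not used. The 2 columns per sample carry no stated meaning and were not treated as replicates.

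Columns were rounded and summed and scaled by TMM factors (edgeR 4.0.16 in R 4.3.3). Log2 ratios of CPM used a pseudocount of 1 (Python 3.11.15, pandas 2.3.3). Genes of at least 1 CPM in 1 library compared were tested. Calls needed a log2 ratio of at least 1 in size and a 95% Clopper-Pearson interval, for counting error only (scipy 1.17.1), that excluded 1. No p-value was computed. Steps were tested on simulated data. Levels of separate columns used TMM factors over all columns.

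Alternatives were scaling by totals or by DESeq2 1.42.0 size factors, pseudocounts of 5 and 0.1, other filters, the authors' deposited TPM, each column alone and a fold of 1.5. The members, 14 other lists and the tests were chosen with earlier results of these data known. The text names all members, family relatives and cell type markers, from each other list up to 4 genes with the largest log2 ratio in size per comparison and all called genes where these are 5 or fewer, and the 3 nearest genes of each called member. Outside that rule, after their values were seen, it names Ccnd2, Slc7a5, Slc3a2, Slc1a5, Crtam, Nrgn, Icam1, Ier2, Fos, Dusp2 and Nfkbiz. Motifs were sought in RefSeq promoter windows of GRCm38.p6. The values of 1 listed gene are not reported here.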

Additional observations from a re-analysis of the deposited data

How the results depend on the processing

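Of the 10 genes, Nr4a1, Nr4a3, Egr3 and Irf8 were called higher in young TRM under all 10 alternatives, and Egr1 also with column 1 alone (1.03) and with a fold of 1.5. No member was called with age under any alternative run, a fold of 1.5 included. Egr2 came nearest, at 1.499-fold, with a log2 ratio of 0.51 to 0.61 over the settings. Its ratio thus lay on either side of a fold of 1.5, which was not combined with the other alternatives. The signs of the age ratios of Egr1 (-0.07 to 0.02), Egr3 (-0.05 to 0.04) and Nfatc1 (-0.05 to 0.01) depended on the setting. Over all genes, a pseudocount of 5 gave 296 higher and 190 lower genes with the cytokines (484 and 417 as reported) and 87 and 62 with age (260 and 133). A pseudocount of 0.1 gave 472 higher and 208 lower genes with age, genes of at least 10 CPM gave 234 lower with the cytokines and 123 higher with age, and a fold of 1.5 gave 1091 and 1054 with the cytokines and 731 and 445 with age. These moves follow from how the pseudocount, filter and fold treat weakly expressed or little changed genes. No paired analysis was possible because each group has 1 sample. With 1 sample per group, depth does not limit the 10 genes (at least 977 reads each), but variation between mice and cultures could not be estimated.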
